A study of Homo sapiens with 18 samples.

Results

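The desaturases and elongases of long-chain fatty acids were followed as 9 genes in an ovarian cancer cell line given a saturated or a monounsaturated fatty acid. The members were the stearoyl-CoA desaturases SCD and SCD5, the fatty acid desaturases FADS1, FADS2 and FADS3, and the elongases ELOVL1, ELOVL5, ELOVL6 and ELOVL7. They were chosen by name and found through their Ensembl gene identifiers among the 60483 genes listed. All 9 reached the mean of 1 TPM, the length-scaled share of transcripts, that admitted 13789 genes to the tests.

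RNA was sequenced from wild-type OVCAR5, an established line labelled as high grade ovarian serous adenocarcinoma, in 18 samples of 6 conditions with 3 samples each. Cells first grew for 24 h under standard conditions and then spent 24 h in medium with 5% bovine serum albumin free of fatty acids, which all groups shared. The conditions were the vehicle DMSO alone, 1 µM CAY10566 alone, 50 µM stearate with DMSO, 50 µM stearate with 1 µM CAY10566, 50 µM oleate with DMSO, and 50 µM oleate with 1 µM CAY10566. CAY10566 is an inhibitor of SCD1, the enzyme that SCD encodes. For the fatty acid comparisons, samples were pooled over the inhibitor into a control, a stearate and an oleate group of 6 samples each. The labels gave no batch, and nothing in them says that replicates came from separate cultures, so p-values measure the spread between these samples, which may be technical.

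Stearate is a saturated fatty acid and oleate is the monounsaturated acid of the same chain length. SCD and SCD5 place the first double bond into saturated acyl-CoA, turning stearoyl-CoA into oleoyl-CoA. FADS2 and FADS1 act in turn to make long polyunsaturated fatty acids, and FADS3 desaturates sphingoid bases. ELOVL enzymes carry out the condensation that opens each round of chain elongation, ELOVL6 on palmitoyl-CoA, ELOVL5 on polyunsaturated acids, and ELOVL1 and ELOVL7 on longer saturated chains. SCD transcription is known to follow the sterol regulatory element-binding proteins (SREBPs) and the liver X receptors, and unsaturated fatty acids are known to lower it.

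Epithelial markers were high in these cells, with a mean of 895 TPM for KRT8, 774.5 TPM for KRT18 and 331 TPM for EPCAM. Of the Müllerian and serous markers, PAX8 was at 11.8 TPM and MSLN at 1.02 TPM, whereas WT1, MUC16 and SOX17 stayed under 1 TPM on average, and of the intestinal markers CDX2 was at 3.76 TPM and KRT20 at 1.69 TPM, with VIL1, LGALS4 and CDH17 under 1 TPM. The leukocyte and endothelial markers examined were all under 1 TPM on average, as were the fibroblast markers other than COL1A1 at 5.04 TPM. Samples of the same condition correlated at 0.982 to 0.987 and samples of different conditions at 0.978 to 0.987 (Pearson's r across genes, which are not independent replicates). On the first principal component, which held 16.4% of the variance, the control library CAY10566 replicate 3 lay at -14.2 and the other 5 control libraries between 12.2 and 19.9. Leaving it out gave the same numbers of members called with stearate, with oleate and between the fatty acids, 3, 2 and 4 of 9, while the share of all genes called went from 19.4%, 25.7% and 21.1% to 26.8%, 34.2% and 25.0%. The stearate+DMSO libraries were also spread along the first component, from -10.1 for replicate 1 to 11.9 for replicate 3. In bulk samples such as these, fewer cells of a type and less RNA per cell cannot be told apart.

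The 250 bases before the transcription start of SCD, and the parts of the same window that lie before the annotated gene body of ELOVL1 and ELOVL7, are shown because these members carried the changes described below. Sequences are from RefSeq on GRCh38.p14 and are written 5′ to 3′ on the strand of the gene. Capitals mark CCAAT, the motif of NF-Y, and GGGCGG, the GC box of Sp1, on either strand. The SCD window is chr10:100346983-100347232 on the plus strand, the ELOVL1 window chr1:43368075-43368261 on the minus strand, and the ELOVL7 window chr5:60844275-60844519 on the minus strand.
SCD: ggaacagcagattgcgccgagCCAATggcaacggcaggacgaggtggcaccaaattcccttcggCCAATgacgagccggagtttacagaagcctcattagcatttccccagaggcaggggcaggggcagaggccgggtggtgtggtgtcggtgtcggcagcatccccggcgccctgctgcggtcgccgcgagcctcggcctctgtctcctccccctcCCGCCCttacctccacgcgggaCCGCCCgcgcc
ELOVL1: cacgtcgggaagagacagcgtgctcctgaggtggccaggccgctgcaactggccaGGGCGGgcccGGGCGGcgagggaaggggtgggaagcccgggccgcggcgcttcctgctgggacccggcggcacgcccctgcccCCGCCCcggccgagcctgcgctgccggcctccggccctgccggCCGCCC
ELOVL7: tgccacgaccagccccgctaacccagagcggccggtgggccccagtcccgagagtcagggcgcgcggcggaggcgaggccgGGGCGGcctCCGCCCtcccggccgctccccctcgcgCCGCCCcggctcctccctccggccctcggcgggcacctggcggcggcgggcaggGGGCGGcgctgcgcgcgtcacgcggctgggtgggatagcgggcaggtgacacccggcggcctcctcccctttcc

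The SCD window held 2 CCAAT matches, beginning 229 and 186 bases before the start, and 2 GC boxes. At least 2 CCAAT matches were found in 9.53% of the 35116 promoters of the same length in the table. Over the full 250 bases, ELOVL1 had 1 CCAAT match, which begins 65 bases before the start, overlaps a GC box and is cut off at the end of the sequence shown, and ELOVL7 had none. Of the 10 promoters of the 9 members, FADS2 having 2 of which 1 held a GC box, 5 held CCAAT against 32.0% of all promoters, and 8 held a GC box against 42.6%. TCACNCCAC, a sterol regulatory element, was found in 0 of these 10 promoters and 0.883% of all promoters. CACGTG, the E-box, matched only ELOVL5 among the members, against 6.34% of all promoters. The direct repeat that liver X receptors bind matched 0 of these 10 and 0.0142% of all promoters. These matches describe the letters of this window only.

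TPM is scaled by transcript length, so levels of different genes may be set beside each other. Gene positions below are those of GENCODE 44 on GRCh38. ELOVL1 was the most abundant member at a mean of 235.8 TPM over the 18 samples, followed by SCD at 156 TPM. Although the ranges of these genes overlapped, ELOVL1 was above SCD in 18 of 18 samples. ELOVL5 (69.3 TPM), FADS3 (60.5 TPM), ELOVL6 (58.8 TPM) and FADS1 (53.3 TPM) formed a middle tier in which each overlapped its neighbour in range. FADS2 (13.5 TPM) and ELOVL7 (9.65 TPM) overlapped in range as well, and SCD5 (2.75 TPM) lay below every other member. Of SCD and SCD5 together, SCD made up 98.6% ± 0.107 (SD, n = 6) in the control group, 98.3% ± 0.372 with stearate and 97.6% ± 0.418 with oleate.

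**Figure D1:**
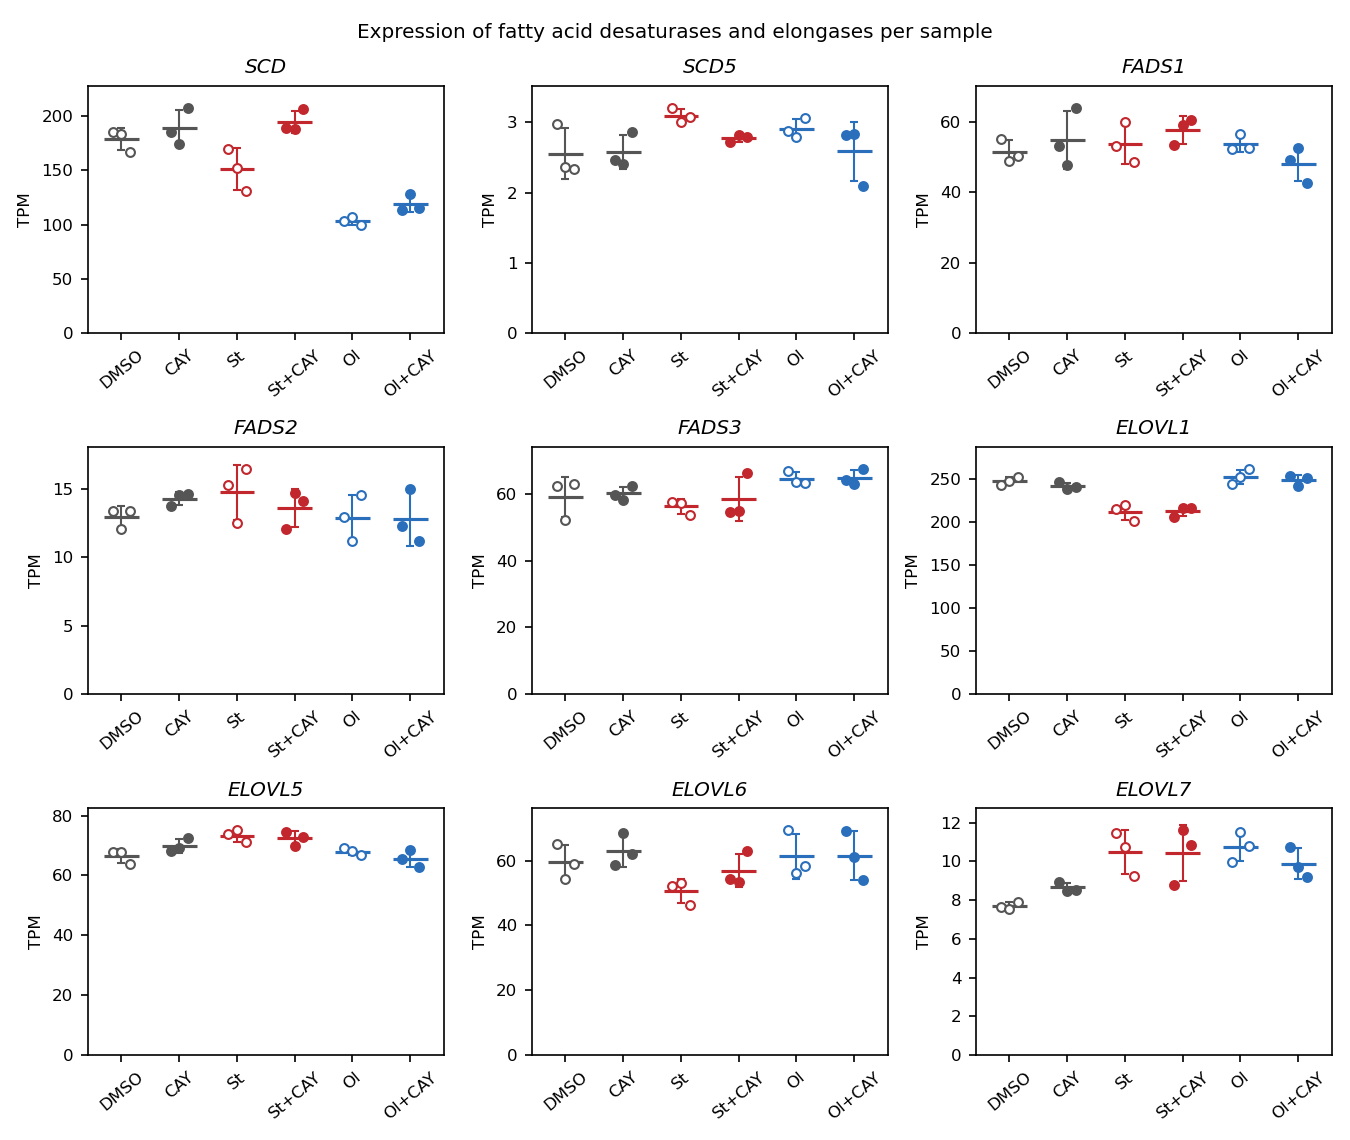
TPM of the 9 members in each of the 18 samples, by condition (open points DMSO, filled points CAY10566, gray without fatty acid, red stearate, blue oleate), with the mean of 3 samples as a line and the SD as a bar. SCD is lower in the 6 oleate samples than in every other sample, and ELOVL1 is lower in the 6 stearate samples.

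SCD (chr10:100347233-100364826, plus strand) fell with oleate, the product of the reaction its enzyme catalyzes. In the control group its level ran from 167 TPM through a median of 184 TPM to 207 TPM, and in the oleate group from 99.9 TPM through 110.3 TPM to 128 TPM. Every oleate sample was therefore below every control sample, a split found in 4.06% of all genes tested. The mean was 184 ± 13.6 TPM without and 111 ± 10.3 TPM with oleate (SD, n = 6 in either group), and their ratio was 0.606. The log2 fold change was -0.72 (SE 0.09, adjusted p = 0.00021, limma), and the exact permutation test gave p = 0.00216, the smallest that 6 samples against 6 allow. With stearate, SCD ran from 131 TPM through 179 TPM to 206 TPM, a range that took in every control sample but the highest. Its log2 fold change with stearate was -0.10 (95% interval -0.28 to 0.08, adjusted p = 0.446), and it ran from -0.15 without stearate+CAY10566 replicate 3 to -0.02 without stearate+DMSO replicate 3. Set directly against oleate, SCD was higher with stearate by 0.62 on the log2 scale (SE 0.09, adjusted p = 5.8e-05), again with no overlap, beside 10.2% of all genes.

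Among the 9 members, 2 passed a false discovery rate of 0.05 with oleate, SCD lower and ELOVL7 higher, a share to be read against 25.7% of all genes tested. SCD was the only one also past the fold threshold of the study, a change of 0.32 on the log2 scale, which 6.9% of genes passed in either direction and 0.435% in the lower direction. SCD5 (chr4:82629539-82798796, minus strand), which encodes the other stearoyl-CoA desaturase, did not pass in either comparison with the control group. Its level had medians of 2.44 TPM in the control group, 2.92 TPM with stearate and 2.83 TPM with oleate, with log2 fold changes of 0.14 (adjusted p = 0.196) and 0.07 (adjusted p = 0.541). The latter was 0.12 without oleate+CAY10566 replicate 3 (adjusted p = 0.199). In the stearate group SCD5 ran from 2.72 to 3.2 TPM and in the control group from 2.33 to 2.98 TPM, and the unadjusted exact permutation test gave p = 0.0303.

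ELOVL1 (chr1:43363398-43368074, minus strand) fell with stearate. Its level ran from 238 TPM through 245 TPM to 253 TPM in the control group and from 201 TPM through 215 TPM to 219 TPM in the stearate group. The groups did not overlap, which held for 7.79% of all genes tested. Means were 245 ± 5.24 TPM without and 212 ± 7.08 TPM with stearate (SD, n = 6 in either group), at a ratio of 0.867. The log2 fold change was -0.21 (SE 0.03, adjusted p = 2.17e-05), with p = 0.00216 by the exact permutation test. With oleate, ELOVL1 ran from 242 TPM through 251 TPM to 261 TPM, and its log2 fold change of 0.03 (adjusted p = 0.357) turned to -0.07 when samples were rescaled by size factors. Between the fatty acids ELOVL1 was lower with stearate by a log2 fold change of -0.24 (SE 0.03, adjusted p = 1.88e-06), without overlap.

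ELOVL7 (chr5:60751791-60844274, minus strand) rose with both fatty acids. Its level ran from 7.55 TPM through 8.19 TPM to 8.94 TPM in the control group, from 8.8 TPM through 10.8 TPM to 11.6 TPM with stearate and from 9.17 TPM through 10.4 TPM to 11.5 TPM with oleate. In the stearate group, 5 of 6 samples were above every control sample, and in the oleate group all 6 were, a separation found in 4.06% of all genes. The log2 fold change was 0.32 with stearate (SE 0.07, adjusted p = 0.00419) and 0.30 with oleate (SE 0.07, adjusted p = 0.00575). The mean levels, 10.5 ± 1.17 TPM and 10.3 ± 0.849 TPM (SD, n = 6 each), were 1.28 and 1.26 times the control mean of 8.18 ± 0.557 TPM, while on the log2(TPM + 1) scale used for the tests both changes stayed under the fold threshold of the study. These comparisons use the same control samples. The difference between the fatty acids was 0.01 (95% interval -0.13 to 0.16).

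The other elongases moved less. ELOVL5 (chr6:53267398-53349179, minus strand) had medians of 68.0 TPM in the control group, 73.2 TPM with stearate and 67.4 TPM with oleate, and all 6 stearate samples were above all 6 oleate samples, a separation seen in 10.2% of all genes. It was higher with stearate than with oleate by 0.12 on the log2 scale (SE 0.03, adjusted p = 0.00962). Against the control group its increase of 0.09 (SE 0.03) just passed (adjusted p = 0.0449), with 4 of 6 stearate samples above every control sample, and it passed in only 9 of 25 other settings. After rescaling by size factors that increase was 0.04 (adjusted p = 0.436), and ELOVL5 instead passed with oleate, at -0.13 (adjusted p = 0.00636). ELOVL6 (chr4:110045846-110199199, minus strand) makes the stearoyl-CoA that SCD uses, and its medians were 60.6 TPM in the control group, 53.3 TPM with stearate and 59.8 TPM with oleate. Its log2 fold change with stearate was -0.19 (95% interval -0.34 to -0.04) and missed the threshold (adjusted p = 0.0755), with 4 of 6 stearate samples below every control sample. After rescaling, ELOVL6 passed with stearate at -0.25 (adjusted p = 0.0246). Its difference with oleate was 0.00 (95% interval -0.15 to 0.15). Between stearate and oleate ELOVL6 was at -0.19 (95% interval -0.34 to -0.04, adjusted p = 0.0734).

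FADS1 (chr11:61799627-61829318, minus strand), FADS2 (chr11:61792980-61867354, plus strand) and FADS3 (chr11:61873519-61892051, minus strand) lie together. FADS3 ran from 52.05 TPM through 61.0 TPM to 62.8 TPM in the control group, from 53.7 TPM through 56.1 TPM to 66.1 TPM with stearate and from 62.9 TPM through 63.7 TPM to 67.3 TPM with oleate. It was lower with stearate than with oleate by -0.17 on the log2 scale (SE 0.05, adjusted p = 0.0198), and 5 of 6 stearate samples were below every oleate sample. Without stearate+DMSO replicate 3 that difference was -0.15 (adjusted p = 0.0503), and after rescaling it was -0.13 (adjusted p = 0.0591). Every oleate sample was above every control sample in FADS3, yet the log2 fold change of 0.12 (SE 0.05) did not pass (adjusted p = 0.0924). Groups without overlap between oleate and control occurred in 4.06% of all genes tested. FADS1 had medians of 51.7 TPM, 56.2 TPM and 52.4 TPM and FADS2 of 13.6 TPM, 14.4 TPM and 12.6 TPM in the control, stearate and oleate groups, with overlapping ranges throughout. Neither passed in a comparison of the pooled groups, where the largest log2 difference, that of FADS2 between stearate and oleate, was 0.13 (95% interval -0.03 to 0.30). Within the inhibitor arms neither passed on TPM as deposited, and FADS1 between stearate and oleate with CAY10566 was at 0.26 (95% interval 0.04 to 0.47, adjusted p = 0.133), and passed after rescaling by size factors (0.30, adjusted p = 0.0295). The annotated FADS1 gene, on the minus strand, lies within the 29692 bases it shares with FADS2 on the plus strand. The library kit kept strand, but the strand setting of the counting is not given in the sources used here, so these levels are uncertain where the genes overlap. FADS2 also shares 4259 annotated bases with its neighbor FEN1 on the same strand, where no strand setting tells them apart.

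**Figure D2:**
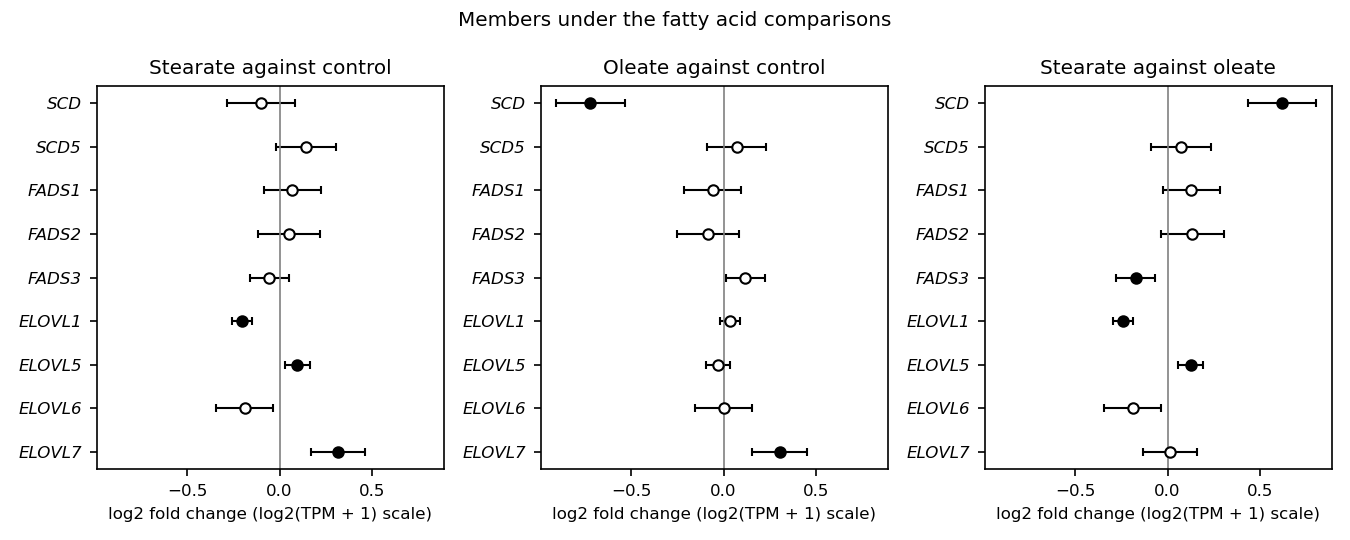
Log2 fold change with its 95% interval for each member in the 3 fatty acid comparisons (6 samples against 6), with filled points at a false discovery rate under 0.05. SCD stands out with oleate at -0.72 and between the fatty acids at 0.62, and ELOVL7 lies near 0.3 with each fatty acid.

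In all, 3 of 9 members passed with stearate against control, 2 higher and 1 lower, beside 19.4% of all genes tested, and 0 of them passed the fold threshold, beside 5.35% of all genes. Between stearate and oleate, 4 of 9 passed, 2 higher and 2 lower, beside 21.1% of all genes, and SCD alone passed the fold threshold, beside 6.37%. The median log2 fold change of the members was 0.05 with stearate, where the median of all genes was 0.06, and 0.00 with oleate, where it was 0.09. Rescaling by size factors brought the medians of all genes to 0.01 and 0.00 and, for oleate in DMSO, from 0.11 to -0.01. It also changed the split of calls over all genes from 1856 higher and 823 lower to 1069 and 1414 with stearate, and from 3169 and 372 to 1226 and 1299 with oleate. The members' split went from 2 higher and 1 lower to 1 and 2 with stearate, and from 1 and 1 to 1 and 2 with oleate. The calls of SCD with oleate, ELOVL1 with stearate and ELOVL7 with either held under rescaling.

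Ratios within a sample do not depend on such scaling and give the makeup of the elongases and desaturases. Of the summed TPM of the 4 elongases, ELOVL1 was 64.0% ± 1.59 in the control group, 60.8% ± 0.805 with stearate and 64.4% ± 1.65 with oleate (SD, n = 6 each). Its highest share with stearate, 61.5%, was below its lowest in the other groups, 62.0% and 62.1%. ELOVL5 took 17.8% ± 0.701 in the control group, 20.9% ± 0.76 with stearate and 17.2% ± 0.615 with oleate, and its lowest share with stearate, 19.9%, was above its highest elsewhere, 18.85%. ELOVL7 went from 2.14% ± 0.142 of the elongases in the control group to 2.99% ± 0.279 with stearate and 2.65% ± 0.188 with oleate, and neither range overlapped that of the control group. The summed TPM of the 4 elongases is not a ratio and does depend on such scaling. It was 382 ± 2.51 TPM in the control group, 349 ± 12.4 TPM with stearate and 389 ± 8.65 TPM with oleate. For each TPM of ELOVL6, which makes the substrate of SCD, there were 3.02 ± 0.327 TPM of SCD in the control group, 3.21 ± 0.296 TPM with stearate and 1.83 ± 0.259 TPM with oleate. FADS3 was 47.2% ± 1.84 of the 3 FADS genes in the control group, 45.1% ± 1.5 with stearate and 50.4% ± 2.81 with oleate. These shares are given without a test, and their separations without a share over all genes. The shares within a set are not independent. A fall of ELOVL1, the largest part, by itself raises the shares of the other elongases.

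The fatty acid effects were next taken apart by inhibitor, with 3 samples in each condition. SCD was at 185, 183 and 167 TPM in DMSO and at 104, 107 and 99.9 TPM in oleate with DMSO. With CAY10566 it was at 185, 174 and 207 TPM, and with oleate and CAY10566 at 114, 128 and 116 TPM. Oleate samples were below their controls in each arm, and the log2 fold change was -0.78 in DMSO (adjusted p = 0.000195) and -0.66 with CAY10566 (adjusted p = 0.00222). In the CAY10566 arm 15 of 13789 genes passed with oleate, 0.109%, and SCD was the only member among them. Without the control library CAY10566 replicate 3, which stood apart on the first principal component, 684 genes passed (4.96%), with SCD at -0.59 (adjusted p = 0.00659) again the only member. In DMSO 24.2% of genes passed (12.4% to 27.5% with 1 library left out), with SCD and ELOVL7 among the members. ELOVL7 went with oleate from 7.65, 7.55 and 7.9 TPM to 9.98, 11.5 and 10.8 TPM in DMSO, a log2 fold change of 0.43 (adjusted p = 0.00641). With CAY10566 it went from 8.94, 8.48 and 8.54 TPM to 10.8, 9.73 and 9.17 TPM, at 0.17 (adjusted p = 0.435). The difference between these effects was -0.26 (SE 0.14, adjusted p = 0.507), so an effect in one arm and a missed threshold in the other does not show that the arms differed.

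With stearate, ELOVL1 fell in each arm. It was at 214, 219 and 201 TPM in stearate with DMSO against 243, 248 and 253 TPM in DMSO, and at 206, 216 and 216 TPM in stearate with CAY10566 against 246, 238 and 241 TPM with CAY10566 alone. The log2 fold changes were -0.23 (adjusted p = 0.00162) and -0.18 (adjusted p = 0.00973), and the latter missed the threshold without stearate+CAY10566 replicate 1 (-0.16, adjusted p = 0.0559). ELOVL7 was at 11.5, 10.8 and 9.24 TPM in stearate with DMSO, 0.40 above DMSO on the log2 scale (adjusted p = 0.0157), and at 8.8, 11.6 and 10.8 TPM in stearate with CAY10566, 0.23 above CAY10566 alone (adjusted p = 0.192). The DMSO value missed the threshold without DMSO replicate 2 (0.38, adjusted p = 0.058), stearate+DMSO replicate 1 (0.34, adjusted p = 0.079) or stearate+DMSO replicate 2 (0.38, adjusted p = 0.0564). ELOVL5 passed with stearate in DMSO at 0.14 (adjusted p = 0.0475) but not with CAY10566 at 0.05 (adjusted p = 0.574), and it passed in 8 of 24 other settings in DMSO. Of the 9 members, 3 passed in DMSO beside 14.0% of genes and 1 passed with CAY10566 beside 4.75%. SCD with stearate was -0.25 in DMSO (adjusted p = 0.057) and 0.04 with CAY10566 (adjusted p = 0.829). The DMSO value was -0.15 without stearate+DMSO replicate 3 (adjusted p = 0.199), -0.33 without stearate+DMSO replicate 1 (adjusted p = 0.0289) and -0.34 after rescaling by size factors (adjusted p = 0.00356).

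Between stearate and oleate, the same 2 of 9 members passed in each arm, beside 8.98% of genes in DMSO and 7.66% with CAY10566. With 1 library left out, these shares of all genes ran from 4.5% to 11.9% and from 4.15% to 9.99%. The members called then stayed at 2 in DMSO and were 2 to 3 with CAY10566. SCD was higher with stearate by 0.54 in DMSO (adjusted p = 0.000603) and by 0.70 with CAY10566 (adjusted p = 4.45e-05), and ELOVL1 stood at -0.25 (adjusted p = 0.000477) and -0.23 (adjusted p = 0.00135). FADS3 was at -0.19 (adjusted p = 0.122) and -0.15 (adjusted p = 0.253), the latter at -0.24 without stearate+CAY10566 replicate 3 (adjusted p = 0.0545). ELOVL5 was at 0.11 (adjusted p = 0.146) and 0.14 (adjusted p = 0.0578), and passed in each arm after rescaling by size factors (0.15, adjusted p = 0.0365, and 0.19, adjusted p = 0.0126).

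**Figure D3:**
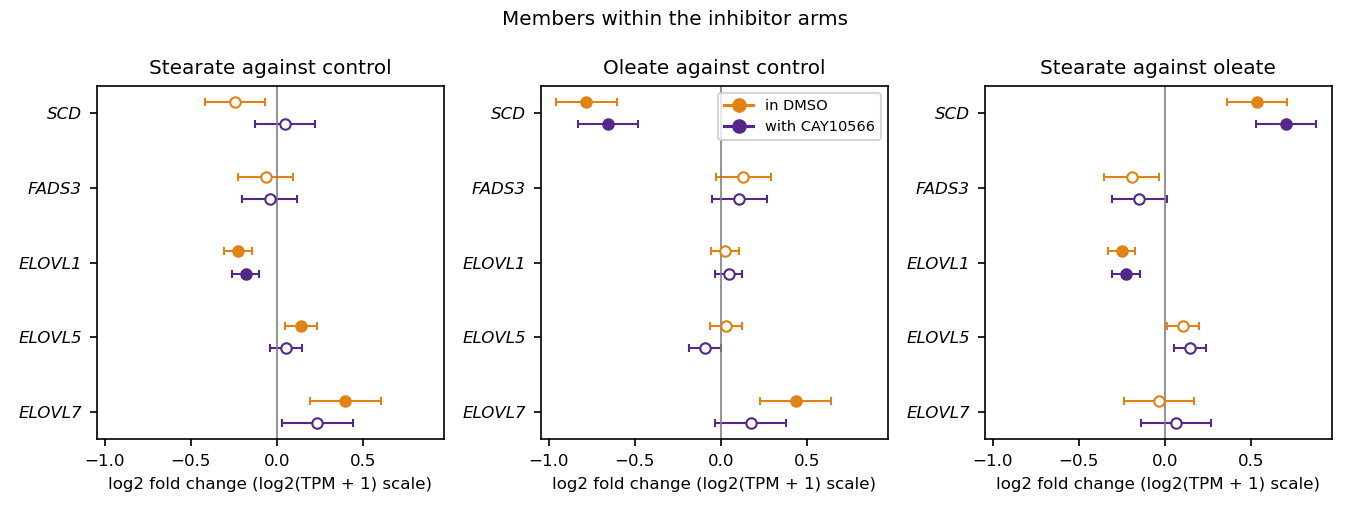
Log2 fold change with its 95% interval for the 5 members called in a fatty acid comparison, taken within DMSO (orange) and within CAY10566 (purple), 3 samples against 3, with filled points at a false discovery rate under 0.05. SCD is lower with oleate in each arm, at -0.78 and -0.66, and ELOVL1 is lower with stearate in each arm, at -0.23 and -0.18.

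CAY10566 itself moved 0 of 9 members past the threshold over the 9 treated and 9 DMSO samples, and 0 of 13789 genes passed (0.0%), with 748 at an unadjusted p under 0.05 by limma (5.42%). SCD, which encodes the target of the inhibitor, had the largest value among the members, 0.22 on the log2 scale (95% interval 0.11 to 0.33, adjusted p = 0.642, unadjusted p = 0.000698). Permuting the inhibitor labels within the fatty acid groups, a test chosen after the values were seen, gave an exact unadjusted p = 0.00125 for SCD. The other 8 members lay between -0.08 for SCD5 and 0.09 for ELOVL6.

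In stearate SCD was at 170.0, 152 and 131 TPM with DMSO and at 189, 188 and 206 TPM with CAY10566, so that these samples did not overlap. The log2 fold change was 0.37 (95% interval 0.19 to 0.54, adjusted p = 0.393), and 0 of 9 members passed in stearate, beside 2 of 13789 genes (0.0145%). In oleate, the SCD values given above did not overlap either, with a log2 fold change of 0.20 (95% interval 0.03 to 0.38, adjusted p = 0.979), and without fatty acid they did overlap, at 0.08 (95% interval -0.10 to 0.25), a value that ran from 0.01 without CAY10566 replicate 3 to 0.13 without CAY10566 replicate 2. The exact permutation test gave p = 0.1 for SCD in stearate and in oleate, the smallest that 3 samples against 3 allow, and groups without overlap made up 11.6% of genes in stearate and 9.88% in oleate. The effect of stearate on SCD was higher with CAY10566 than without by 0.29 (SE 0.12, unadjusted p = 0.0242, adjusted p = 0.512), and this difference ran from 0.19 without stearate+DMSO replicate 3 to 0.38 without stearate+DMSO replicate 1. For oleate the same difference was 0.12 (SE 0.12, adjusted p = 0.706), and it ran from 0.07 without CAY10566 replicate 2 to 0.19 without CAY10566 replicate 3. No member passed in either test of a difference between arms, where 1 gene (0.00725%) passed for stearate and 0 for oleate, and 0 passed in either without CAY10566 replicate 3.

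The genes whose pattern over the 18 samples was most like that of SCD, among 10141 genes with a mean of at least 5 TPM, were DHCR7, FDFT1, INSIG1, LIPG and FDPS, with Pearson's r of 0.976, 0.974, 0.973, 0.953 and 0.948. DHCR7, FDFT1 and FDPS encode enzymes of cholesterol synthesis, INSIG1 retains the SREBP complex in the endoplasmic reticulum, and LIPG encodes endothelial lipase. INSIG1 was at 64.4 ± 4.81 TPM in the control group, 58.7 ± 5.01 TPM with stearate and 42.5 ± 2.58 TPM with oleate (SD, n = 6 each). DHCR7 was at 90.1 ± 3.64 TPM, 87.3 ± 6.57 TPM and 65.1 ± 3.92 TPM in the same order. The genes most like ELOVL7 were TWSG1, DCTN5, DTX3L, NEK7 and TMEM140, with r from 0.886 to 0.897, each higher on average with either fatty acid than in the control group. All these points share their libraries, so the values describe likeness only and carry no p.

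**Figure D4:**
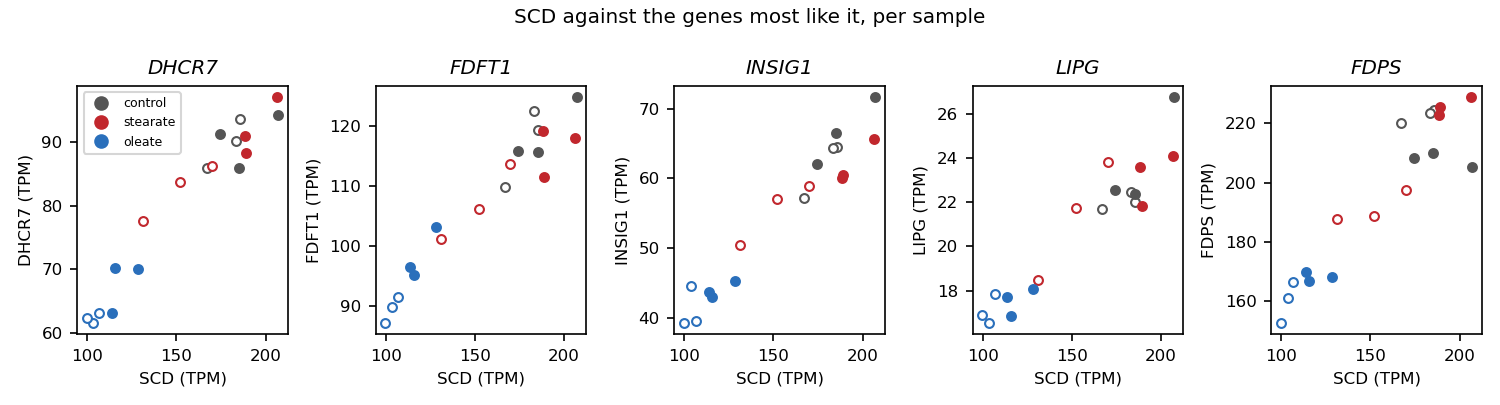
TPM of SCD (horizontal axis) against TPM of the 5 genes most like it (vertical axes) in the 18 samples, gray for control, red for stearate and blue for oleate, open for DMSO and filled for CAY10566. The oleate samples lie at the left of each panel, with SCD from 99.9 to 128 TPM, and below all other samples on the vertical axis for each gene but FDFT1.

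The pathway around the members was described from lists, in which genes under a mean of 1 TPM were not tested. The counts in these lists stand beside 19.4% of all genes called with stearate (13.5% higher, 5.97% lower) and 25.7% with oleate (23.0% higher, 2.7% lower), and nothing particular to a list is read from them. Of 6 other elongases and desaturases, 5 were under 1 TPM, among them ELOVL2, ELOVL3 and ELOVL4. The remaining gene, DEGS1, which desaturates dihydroceramide, was at 32.3 ± 2.11 TPM in the control group and rose with stearate by 0.16 (adjusted p = 0.0393), though after rescaling its value was 0.10 (adjusted p = 0.185).

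Beyond the condensation step, an elongation round needs a ketoreductase, a dehydratase and the enoyl reductase TECR. Of the 5 tested genes of the cycle, 1 rose with stearate, and 2 rose and 1 fell with oleate, over ranges of -0.07 to 0.22 and -0.28 to 0.22. TECR had means of 92.8 ± 7.46 TPM in the control group and 76.2 ± 4.43 TPM with oleate (SD over 6 samples), and fell by 0.28 on the log2 scale (SE 0.05, adjusted p = 0.00246). Between stearate and oleate TECR was higher with stearate by 0.38 (SE 0.05, adjusted p = 2.59e-05). HACD2, a dehydratase named after its values were seen, rose by 0.22 with either fatty acid, and its oleate value missed the threshold after rescaling (0.12, adjusted p = 0.0566). HACD3, another dehydratase named after its values were seen, rose with oleate by 0.16 (adjusted p = 0.00598) and was at 0.05 after rescaling (adjusted p = 0.308), so that neither of these oleate rises held on that scale. Electrons reach the desaturases through cytochrome b5 and its reductases, and of the 7 genes of this chain only CYB5B passed, with stearate (0.08, adjusted p = 0.0423, and 0.02 with adjusted p = 0.583 after rescaling). Over the chain, log2 fold changes ran from -0.08 to 0.12 with stearate and from -0.05 to 0.11 with oleate.

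Of the 11 genes listed under fatty acid synthesis 9 were tested, and 1 rose and 3 fell with stearate, whereas 0 rose and 4 fell with oleate. FASN, the synthase that makes palmitate, fell by 0.49 with stearate (SE 0.08, adjusted p = 0.000409) and by 0.61 with oleate (SE 0.08, adjusted p = 0.000361) on the log2 scale. Its level was 94.3 ± 8.56 TPM in the control group, 67.2 ± 7.84 TPM with stearate and 61.6 ± 7.48 TPM with oleate (SD, n = 6 each). SLC25A1, the mitochondrial citrate carrier, also fell with each, by 0.19 (adjusted p = 0.0033) and 0.41 (adjusted p = 1.59e-05). ME1, a source of NADPH, rose by 0.16 with stearate (adjusted p = 0.0044) and fell by 0.27 with oleate (adjusted p = 0.000382). After rescaling, the rise of ME1 with stearate was 0.11 (adjusted p = 0.116).

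Of 16 tested genes of SREBP and liver X receptor control, 0 rose and 3 fell with stearate, and 3 rose and 2 fell with oleate, beside 19.4% and 25.7% of all genes called. INSIG1 fell with oleate by 0.59 (SE 0.06, adjusted p = 1.62e-05) and SREBF1, which encodes SREBP-1, by 0.35 (SE 0.06, adjusted p = 0.00242). With stearate SREBF1 fell by 0.22 (adjusted p = 0.0208, and 0.0509 with no filter on TPM), while INSIG1 was at -0.13 (adjusted p = 0.122). SREBF2, which encodes SREBP-2, did not pass with either fatty acid. In the list of acyl-CoA and very long chain handling, 2 of 14 tested genes rose with stearate and 4 rose and 2 fell with oleate. ACSL3, an acyl-CoA synthetase of lipid droplets, rose by 0.18 with stearate (adjusted p = 0.0317) and fell by 0.19 with oleate (adjusted p = 0.0204), and its stearate value after rescaling was 0.12 (adjusted p = 0.176). The fall with oleate missed the threshold with no filter on TPM (adjusted p = 0.0518) and without CAY10566 replicate 1 (-0.16, adjusted p = 0.051). Around the FADS genes, 2 of 7 neighbors rose and 1 fell with stearate, and 2 rose and 1 fell with oleate, beside the same 19.4% and 25.7%. RAB3IL1, next to FADS3, fell by 0.33 with stearate (SE 0.08, adjusted p = 0.00634) and was at 0.04 with oleate (adjusted p = 0.718). Over the 5 lists with at least 7 tested genes, median log2 fold changes with stearate ran from -0.16 for fatty acid synthesis to 0.14 for acyl-CoA handling, beside 0.06 for all genes tested.

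**Figure D5:**
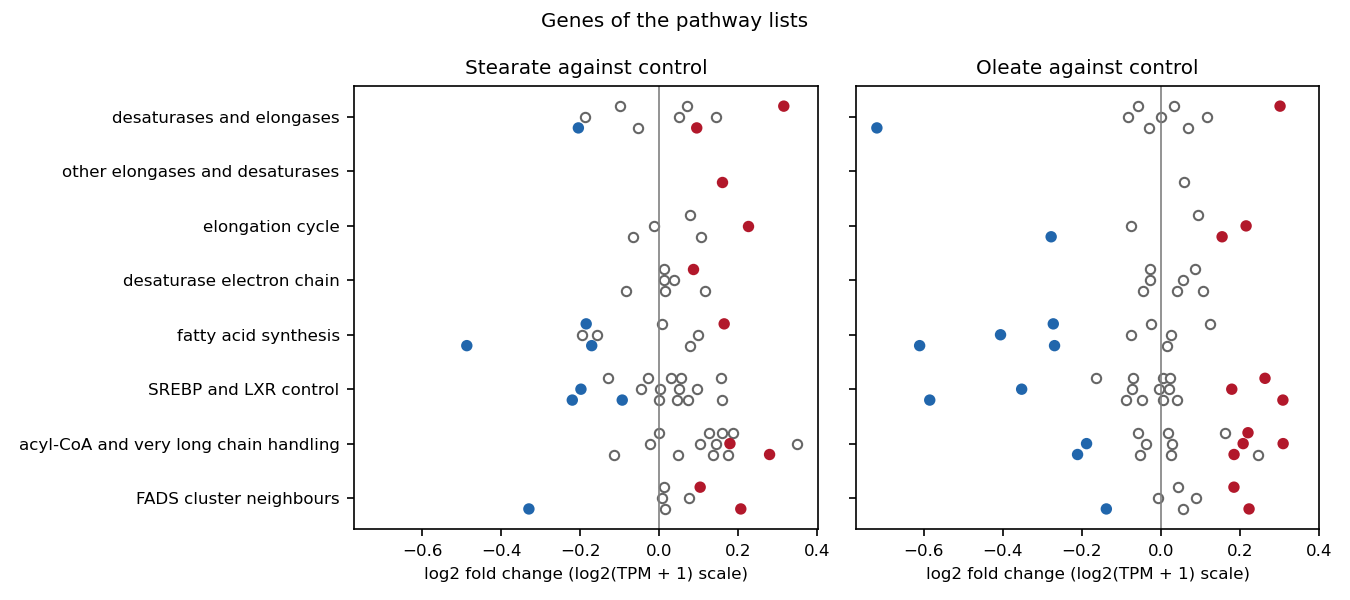
Log2 fold change of each tested gene in the members and the pathway lists, with stearate (left) and oleate (right) against control, in red where higher and blue where lower at a false discovery rate under 0.05 and open otherwise. The lowest points are SCD at -0.72 and FASN at -0.61, with oleate.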

How the data were processed

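Poly(A) RNA of 18 OVCAR5 samples was sequenced with a stranded TruSeq mRNA kit. The submitters' processing notes name Trim Galore, STAR 2.7.1a, RSEM 1.3.1 and Ensembl 99. The authors deposited TPM (read estimates scaled by transcript length and by library) for 60483 genes, and 1 line that names no gene was left out. Sequencing depth is unknown, since TPM sums to the same total in each sample. No counts were analysed here, so low genes such as SCD5 are the least precise.

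Genes with a mean of at least 1 TPM (13789) were tested on log2(TPM + 1) with limma 3.58.1 in R 4.3.3, with a trend in the variance and Benjamini-Hochberg adjustment over all of them. Fold changes on this scale understate the change of low genes. "Rose" and "fell" mean an adjusted p under 0.05. Fatty acid groups of 6 were compared without the inhibitor as a covariate, CAY10566 with the fatty acid as a covariate, and the inhibitor arms and differences between arms in a model of 6 conditions. Permutation tests were two-sided. The script was tested on simulated data.

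The members and pathway lists were chosen with earlier results of these data known. All members are named, along with list genes past an adjusted p of 0.05 and the study's fold threshold in a fatty acid comparison, at most 4 a list, and the 5 genes most like SCD and ELOVL7. DEGS1, HACD2, HACD3, CYB5B and SREBF2 were named after their values were seen. Alternatives were another pseudocount (0.1), no filter, a mean of at least 5 TPM, no variance trend, size factors (median of ratios), a replicate block, the inhibitor as a covariate, and each sample left out in turn. Gene positions are from GENCODE 44 (GRCh38).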

Additional observations from a re-analysis of the deposited data

Results flagged for a closer look

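Within the groups of 6 samples, single libraries stood far from the others for 2 members. SCD5 was at 2.1 TPM in oleate+CAY10566 replicate 3, and at 2.8 to 3.06 TPM in the other 5 oleate samples. FADS3 was at 66.11 TPM in stearate+CAY10566 replicate 3, and at 53.67 to 57.54 TPM in the other 5 stearate samples. In each case the gap to the nearest sample was a larger part of the group's range than Dixon's 95% limit for 6 samples. Of the 27 groups examined, chance alone would mark about 1 in 20. Without that library, FADS3 with oleate against control passed the threshold (adjusted p = 0.0452, limma).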

How the results depend on the processing

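SCD with oleate, ELOVL1 with stearate, ELOVL7 with either fatty acid, and SCD, ELOVL1 and ELOVL5 between the fatty acids passed the threshold in all 25 alternatives run. ELOVL5 with stearate against control passed in 9 of 25 (0.04 to 0.11 on the log2 scale). FADS3 between the fatty acids passed in 23 of 25. ELOVL6 passed with stearate after rescaling by size factors (-0.25, adjusted p = 0.0246) and without stearate+CAY10566 replicate 3 (-0.23, adjusted p = 0.0297). Between the fatty acids it passed without stearate+CAY10566 replicate 3 (-0.23, adjusted p = 0.0252) and without oleate+CAY10566 replicate 3 (-0.22, adjusted p = 0.0385). SCD with stearate in DMSO passed in 4 of 24 alternatives. Of the list genes with stearate, DEGS1 passed in 16 of 25, CYB5B in 12 and ACSL3 in 17.

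Rescaling by size factors turned the sign of FADS2 with stearate (-0.0067), and with oleate of SCD5 (-0.0048) and ELOVL1 (-0.0689). In DMSO it turned FADS3 (-0.0021), ELOVL1 (-0.1083) and ELOVL5 (-0.1002) with oleate, and ELOVL7 between the fatty acids (0.0017), and with CAY10566 it turned ELOVL1 with oleate (-0.0296). Members called between the fatty acids went from 2 to 4 with CAY10566, beside 7.66% and 8.62% of all genes, and from 2 to 3 in DMSO, beside 8.98% and 9.57%. The cause of these changes was not tested.

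Leaving out 1 library gave ranges that crossed 0 for ELOVL6 with oleate (-0.0359 to 0.0349), ELOVL7 between the fatty acids (-0.0171 to 0.0568), in DMSO (-0.0978 to 0.0443) and with CAY10566 (-0.0127 to 0.1686), SCD with stearate and CAY10566 (-0.0109 to 0.1125), FADS3 with stearate and CAY10566 (-0.1337 to 0.002), and ELOVL1 with oleate in DMSO (-0.0007 to 0.0484). The members called with stearate ran from 1 to 4 in DMSO, where 5.11% to 18.4% of all genes passed, and from 0 to 1 with CAY10566, where 2.68% to 4.91% did. Over 72 further member values, most of them not printed, 0 passed and 31 changed sign in an alternative, the largest of those at 0.0866. Of these 72, 2 passed after rescaling by size factors, ELOVL6 with stearate in DMSO (-0.3198, adjusted p = 0.0479) and FADS1 between the fatty acids with CAY10566 (0.3008, adjusted p = 0.0295).

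With a replicate block, 2 members passed with stearate, 2 with oleate and 4 between the fatty acids, beside 18.2%, 24.2% and 20.2% of all genes. ELOVL5 with stearate lost its call (adjusted p = 0.0541, and 0.0594 in DMSO), and no other member's call changed. Deviations of samples that share a number correlated at -0.18 to 0.103, with 2 of 45 pairs over 0.1. Those of samples with other numbers correlated at -0.124 to 0.171, with 6 of 90 pairs over 0.1. No pairing by number was seen, which does not exclude shared handling of samples with the same number. SCD5 has no value at a mean of at least 5 TPM. Depth is unknown, so counting error could not be given.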
